A study of Mus musculus with 10 samples.

Results

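Lung cells that kept the APE1 mutant allele N211A were set against lung cells in which both APE1 alleles are flox alleles, over all genes. APE1 is encoded by Apex1. The libraries were chosen by genotype alone. They are 3 flox/N211A and 3 flox/flox libraries, 6 of the 10 in the series, and the 4 libraries of the control genotype flox/+ entered no main test. A flox allele is flanked by loxP sites and is removed by the Cre recombinase. The flox/N211A genotype carries N211A, an asparagine-to-alanine substitution, beside a flox allele. All 10 libraries share at least 1 flox allele and, per their labels, 12 wk of infection with a Cre-carrying adenovirus, so flox/flox is not an untreated or wild-type state. Each library came from about 500 lung cells of mice, labelled premalignant, by a modified SMART-Seq2 protocol, which copies whole transcripts and amplifies them by PCR. The sources used here do not state strain, age, sex, the promoter driving Cre, any oncogenic allele or how the cells were selected. How completely Cre removed the flox alleles in each library is not known either, and gene counts do not tell N211A transcripts from others. Nothing in the labels ties replicates to separate animals, so p-values measure the spread between these samples, which may be partly technical.

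APE1 cuts the DNA backbone at sites that have lost a base, a central step of base excision repair, and it is also known to act on transcription factors and on G-quadruplexes, the folded structures that runs of guanines can form in DNA. The series title connects it with urea cycle genes and G-quadruplexes in lung adenocarcinoma. Several epithelial cell types of the lung are known by the genes they express. Alveolar type II cells make surfactant and are a known cell of origin of lung adenocarcinoma, club cells secrete secretoglobins into the airway, and ciliated cells carry motile cilia built around the axoneme. The comparison asks which transcripts differ between cells left with the N211A allele and cells without it.

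The flox/flox libraries were less alike than the flox/N211A libraries, and flox/flox replicates 2 and 3 stood apart. Total counts were 10672334, 10946336 and 53678659 in flox/flox replicates 1 to 3 and 8955368, 17070817 and 13992730 in flox/N211A. Of the 11898 genes tested, 15.3%, 37.1% and 29.0% lay under 1 CPM (read counts relative to the library total after TMM scaling) in the flox/flox libraries. The shares were 3.22%, 9.50% and 2.65% in flox/N211A. Rank correlations across genes were 0.812 to 0.872 among flox/N211A libraries and 0.529 to 0.556 among flox/flox libraries. Flox/flox replicate 1 correlated with the flox/N211A libraries at 0.701 to 0.757, and replicates 2 and 3 at 0.538 to 0.632. Flox/flox replicate 2 was also the only library of the 6 with Y-linked counts, at 110 CPM, and its Xist level was 17.9 CPM against 559 to 1169 in the other 5. Sex was therefore not balanced, and the flox/flox libraries cannot all have come from the same animal. Values without flox/flox replicate 2 are values within the Xist-positive libraries. Because flox/flox replicates 2 and 3 hold more genes near 0, results are also given without them. That leaves a lone flox/flox library, which the fit assumes to vary like the others. In libraries of pooled cells, fewer cells of a type and less RNA per cell cannot be told apart.

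Apex1 itself was higher in every flox/N211A library than in every flox/flox library, by little in 1 of them. It stood at 5.96, 0 and 0.478 CPM in flox/flox replicates 1 to 3 (chromosome 14, 50924968 to 50927139, GRCm38) and at 8.30, 13.5 and 6.84 CPM in flox/N211A replicates 1 to 3. The gap between the highest flox/flox library, replicate 1, and the lowest flox/N211A library, replicate 3, is smaller than the spread within either genotype. edgeR put the log2 fold change at 2.15 (SE 2.20, adjusted p = 0.933), which did not pass the threshold of 0.05. Against flox/flox replicate 1 alone it fitted 0.61 (adjusted p = 0.818). The flox/+ libraries ran from 4.42 to 57.7 CPM. Flox/flox replicates 2 and 3 thus held little or no Apex1 RNA, and replicate 1 held it at a level inside the flox/+ range. The same replicates 2 and 3 had 37.1% and 29.0% of all tested genes under 1 CPM, and whether their low Apex1 reflects the allele or a general loss of transcripts was not tested. The sources used here do not state which exons Cre removes, and reads from parts of the gene outside them would be counted too.

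**Figure D1:**
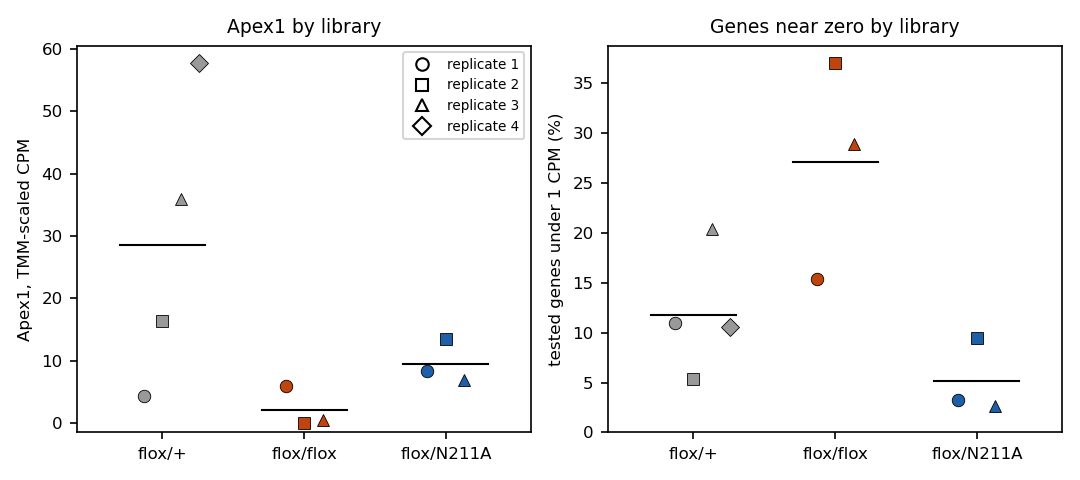
Apex1 in TMM-scaled CPM (left) and the share of tested genes under 1 CPM (right), 1 point per library with the genotype mean as a line. Apex1 lies between 6.84 and 13.5 CPM in flox/N211A and at 5.96 CPM or less in flox/flox, and the share of genes near 0 reaches 37.1% in flox/flox replicate 2.

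No gene passed the test across all genes. edgeR's quasi-likelihood test called 0 of 11898 genes (0%) at an adjusted p under 0.05, and the lowest adjusted p was 0.403. At an unadjusted p under 0.05 it gave 922 genes, 573 higher in flox/N211A (4.82%) and 349 lower (2.93%). DESeq2 called 350 of the 10347 genes to which it gave an adjusted p, 280 higher (2.71%) and 70 lower (0.677%), and limma voom called 0, with 707 genes at an unadjusted p under 0.05. All 350 DESeq2 calls had an unadjusted edgeR p under 0.05 and the same direction. Among the lists described below, edgeR called no member. DESeq2 called as lower 2 axoneme genes and 1 gene each of the multiciliated, BCL2, MHC class II, glycolysis, polyamine and lysosome lists. It called as higher 2 stress response genes, 2 fibroblast genes and 1 gene each of the BCL2, NF-kB and lysosome lists. The dispersion common to all genes was 1.54, which equals a coefficient of variation of 1.24 between replicates.

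By a plainer measure, 2304 genes had libraries without overlap between the genotypes. Of these, 1690 were higher in every flox/N211A library (14.2% of the genes tested) and 614 were lower (5.16%). Among the 1690, the highest flox/flox library was replicate 1 for 1005 genes, replicate 3 for 467 and replicate 2 for 218. The median log2 fold change over all genes tested was -0.0671, with 48.1% above 0, while the median difference of mean log2 CPM was 0.88. The first measure gives more weight to high libraries and the second to libraries near 0. A list is therefore set below against -0.0671, the edgeR value of all genes.

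Among genes higher in flox/N211A without overlap and at a mean of at least 10 CPM, those of smallest p were Ostm1, Serpinb1a, B3gat2, Trib1, Cxcl3, Impact, Elf5, Fance, Psat1 and Gbp2. These 10 each had an edgeR adjusted p of 0.403 and did not pass. DESeq2 called 9 of them, at adjusted p from 3.67e-10 to 0.00208, and gave none for Serpinb1a. All but Trib1 were near 0 in every flox/flox library. Ostm1, the accessory subunit of the lysosomal chloride transporter ClC-7, stood at 0, 0 and 0.0623 CPM in flox/flox and at 43.2, 73.3 and 42.2 CPM in flox/N211A (log2 fold change 10.47, SE 1.80). B3gat2, a glucuronyltransferase, stood at 0.0932, 0.895 and 0.145 CPM against 68.1, 52.9 and 56.8. Cxcl3, a chemokine that draws neutrophils, stood at 0, 0 and 0.0623 CPM against 35.1, 22.4 and 27.3. In all of these the 3 flox/N211A libraries lay close together and the flox/flox libraries all lay under 1 CPM. Elf5, an ETS transcription factor of the distal lung epithelium, stood at 0.0932, 0 and 0.187 CPM in flox/flox and at 19.1, 41.6 and 34.1 in flox/N211A. Impact, which restrains the kinase GCN2, stood at 0, 0 and 0.249 CPM against 42.2, 56.9 and 21.5.

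Psat1, the phosphoserine aminotransferase of serine synthesis, stood at 0.0932, 0 and 0 CPM in flox/flox and at 19.7, 43.3 and 19.1 CPM in flox/N211A (log2 fold change 9.78, SE 2.49). Fance, a Fanconi anemia protein of crosslink repair, stood at 0, 0 and 0.0208 CPM against 19.6, 14.7 and 13.8, and flox/+ reached no more than 1.53 CPM, so the flox/N211A libraries lay above both other genotypes. Serpinb1a, an inhibitor of neutrophil proteases, was at 0 counts in all flox/+ libraries, at 0, 0 and 0.0208 CPM in flox/flox and at 9.82, 6.77 and 138 CPM in flox/N211A, where replicate 3 carried the mean. Gbp2, an interferon-induced GTPase, was uneven as well, at 113, 0.941 and 60.1 CPM in flox/N211A against 0.373, 0 and 0.0623 in flox/flox. Trib1, a pseudokinase that guides protein degradation and binds MEK1, was the exception that all libraries expressed. It stood at 26.7, 36.5 and 42.3 CPM in flox/flox and at 183, 231 and 141 CPM in flox/N211A (log2 fold change 2.40, SE 0.54). Its lowest flox/N211A library was above 3 times its highest flox/flox library. Against flox/flox replicate 1 alone, 7 of these 10 genes had an edgeR adjusted p from 0.0222 to 0.0469 (Ostm1, B3gat2, Trib1, Cxcl3, Impact, Elf5 and Psat1). They had been selected for lying above that library too, so this is a description and no support.

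The corresponding 10 genes lower in flox/N211A were Morn3, Ccdc78, Muc20, Zmynd10, Dnali1, Spata17, Lrrc51, Aldh3b1, Tax1bp3 and Ccdc24, each again with an edgeR adjusted p of 0.403, and DESeq2 called all 10, at adjusted p from 2.81e-05 to 0.0122. Several of them are known from cilia. Morn3, a repeat protein found in sperm flagella and cilia, stood at 125, 159 and 215 CPM in flox/flox and at 17.8, 11.5 and 22.9 CPM in flox/N211A (log2 fold change -3.26, SE 0.62). Ccdc78, which acts in centriole amplification, stood at 252, 610.0 and 655 CPM against 95.5, 82.7 and 70.4 (log2 fold change -2.61, SE 0.51). Zmynd10, an assembly factor of axonemal dynein, stood at 112, 199.6 and 437 CPM against 35.96, 31.3 and 49.5. For each of these, all flox/flox libraries were high and the flox/N211A libraries lay within a narrow band. Dnali1, a dynein light chain, stood at 284, 377 and 524 CPM in flox/flox and at 113, 100.2 and 104 in flox/N211A. Lrrc51 stood at 483, 378 and 540.0 CPM against 165, 141 and 107, and Spata17 at 140.4, 168 and 325 against 56.1, 27.6 and 25.9.

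Muc20, a membrane mucin, stood at 54.2, 251 and 381 CPM in flox/flox and at 12.2, 24.96 and 25.1 CPM in flox/N211A (log2 fold change -3.46, SE 0.78). Aldh3b1, an aldehyde dehydrogenase, stood at 334, 935 and 1042 CPM against 209, 153 and 165, Tax1bp3 at 15.4, 203 and 149 against 7.15, 10.3 and 5.73 and Ccdc24 at 65.04, 221 and 178 against 31.4, 10.04 and 20.97. Flox/flox replicate 1 lay nearest to flox/N211A in 9 of the 10 genes, all but Lrrc51. For 390 of the 614 non-overlapping lower genes, too, replicate 1 was the lowest flox/flox library.

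**Figure D2:**
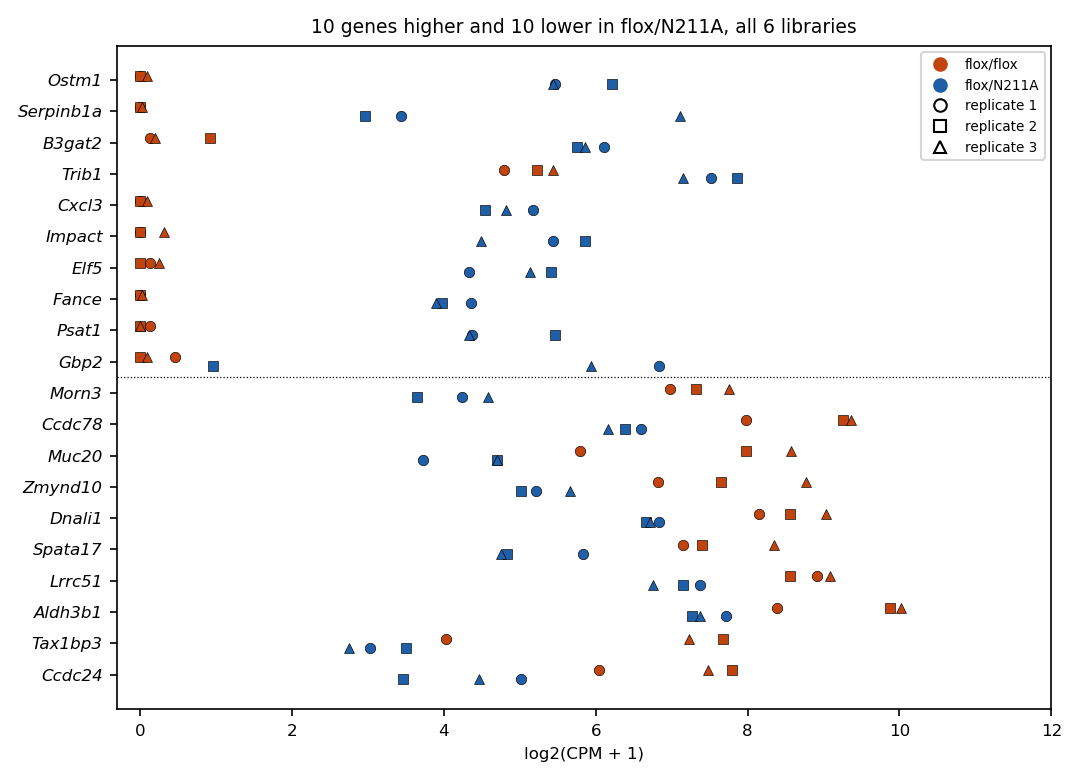
log2(CPM + 1) of the 10 genes higher (top) and 10 lower (bottom) in flox/N211A, 1 point per library, colored by genotype and shaped by replicate. The flox/flox points of 9 of the upper 10 genes lie under 1 CPM, while every library expresses the lower 10 genes.

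Because the series concerns G-quadruplexes, promoter windows were searched for 4 runs of at least 3 guanines separated by 1 to 7 bases of any kind (A, C, G or T), on either strand. A window holds 250 bases before and 50 after a gene's start, from RefSeq on GRCm38.p6, and 18.6% of all 32851 windows of that length held the motif. Of the 20 genes named above, 16 had a window, and the motif was in those of Psat1 and Muc20, which go in opposite directions. They are shown because they are the named genes with a match. Capitals mark every base inside a match, overlapping matches included, on the gene's own strand in both. The Psat1 window is chr19:15924573-15924872 on the minus strand and the Muc20 window is chr16:32797386-32797685 on the minus strand.
Psat1: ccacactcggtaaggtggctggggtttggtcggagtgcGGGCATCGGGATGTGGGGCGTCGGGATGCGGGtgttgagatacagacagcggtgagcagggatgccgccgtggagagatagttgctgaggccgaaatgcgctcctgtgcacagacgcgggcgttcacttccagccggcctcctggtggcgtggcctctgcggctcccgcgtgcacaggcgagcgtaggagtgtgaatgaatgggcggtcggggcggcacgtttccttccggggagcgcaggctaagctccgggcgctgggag
Muc20: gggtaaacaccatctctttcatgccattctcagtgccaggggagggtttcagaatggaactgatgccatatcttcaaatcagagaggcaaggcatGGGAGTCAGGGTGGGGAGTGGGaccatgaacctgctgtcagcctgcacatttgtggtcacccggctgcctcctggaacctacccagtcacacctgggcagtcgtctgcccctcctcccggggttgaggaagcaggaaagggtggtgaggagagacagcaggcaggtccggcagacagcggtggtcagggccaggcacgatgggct
A match says only that these letters are present. Windows were found for 79.8% of the genes tested, so a comparison of genes with and without the motif was held to be void and was not made.

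Alveolar type II genes were higher in flox/N211A. Of 20 tested, 18 lay above 0, with a median log2 fold change of 1.14 against -0.0671 for all genes, and 7 did not overlap, all higher (35%, against 14.2% of all genes). The summed level of the list was 36340, 34410 and 24470 CPM in flox/flox and 61000, 63060 and 70460 CPM in flox/N211A, without overlap, and ran from 60190 to 212200 CPM in flox/+. The flox/N211A libraries thus lay at the lower end of the flox/+ range and all flox/flox libraries below it. Sftpc, surfactant protein C, made up much of that sum, at 20861, 18558 and 9614 CPM in flox/flox and 35952, 38628 and 39748 CPM in flox/N211A (log2 fold change 1.22, SE 0.66, adjusted p = 0.765). Cxcl15, the lung chemokine lungkine, stood at 1657, 214 and 246 CPM against 4348, 2442 and 3217 (log2 fold change 2.24, SE 0.81, adjusted p = 0.485). Neither passed, and in both flox/flox replicate 1 was the library nearest to flox/N211A. Lyz2 and Sftpa1, a lysozyme and a surfactant protein, did overlap, at 1753, 2150.5 and 4552 CPM against 3656, 4257 and 6048 and at 6214, 10953 and 4048 against 10132, 11586 and 12798.

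Further members, chosen after their values were seen, were uneven. Scd1, the desaturase that makes oleate for surfactant lipid, stood at 356, 45.01 and 218 CPM in flox/flox and 876, 644 and 1035 CPM in flox/N211A (log2 fold change 2.04, SE 0.68, adjusted p = 0.452). Chil1, a chitinase-like protein, stood at 448, 129.7 and 89.3 CPM against 684, 774 and 811, Slc34a2, the phosphate transporter of type II cells, at 569, 45.2 and 126 against 867, 638 and 945, and Egfl6 at 20.5, 0.0895 and 0.934 against 126, 90.4 and 45.9. All 4 were without overlap. Lamp3, a lamellar body protein, and Lpcat1, which makes surfactant phospholipid, overlapped through flox/flox replicate 1. Lamp3 stood at 384, 83.9 and 0.498 CPM against 458, 339 and 373, and Lpcat1 at 197, 42.8 and 2.37 against 334, 104 and 281, so that flox/flox replicates 2 and 3 were the low libraries of both. Sftpb, surfactant protein B, stood at 1263, 835 and 3996 CPM against 904, 666 and 1919, with its highest value in flox/flox replicate 3. Without flox/flox replicates 2 and 3 the list's median was 0.36 against 0.21 for all genes, so its distance from all genes was smaller without those libraries.

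Alveolar type I markers and lineage factors also had medians above 0. Of the genes of alveolar type I cells, the thin cells of gas exchange, 12 of 15 lay above 0 and 1 was higher without overlap (6.67%, against 14.2% of all genes). Their median was 0.81. Without flox/flox replicates 2 and 3 it was 0.04, below the 0.21 of all genes. The list's sums overlapped, at 1726, 2011 and 2375 CPM in flox/flox and 2191, 2055 and 1698 CPM in flox/N211A. Of its 4 most abundant members, Emp2 and Cldn18 lay above 0 and Aqp5 and Cav2 below. Aqp5 stood at 169.5, 1299 and 755 CPM against 154, 159.8 and 239.2 (log2 fold change -2.01). Of 15 factors of lung lineage and tumor progression, 12 lay above 0, with a median of 0.95 and 4 higher without overlap (26.7%, against 14.2%). Nkx2-1, the lineage factor of the lung, overlapped at 154, 8.95 and 74.6 CPM against 194, 162 and 137, and Foxa2 at 153, 120.0 and 43.5 against 147, 111 and 156. Cebpa, a factor of type II cell differentiation that was chosen after its values were seen, stood at 38.02, 14.05 and 0.166 CPM in flox/flox and 72.7, 68.7 and 103 CPM in flox/N211A. In the transitional alveolar state, which cells pass through on leaving the type II state, 5 of 17 genes lay above 0, with a median of -0.62. That median was 0.86 without flox/flox replicates 2 and 3, so its sign depended on them. Of 20 club cell genes 12 lay above 0 (median 0.16). Without overlap, 1 was higher (5%, against 14.2% of all genes) and 3 were lower (15%, against 5.16%). The median was -0.22 without flox/flox replicates 2 and 3. The secretoglobin Scgb1a1 overlapped at 191161, 68417 and 32668 CPM against 114469, 251466 and 210553. Cbr2 overlapped too, in the other direction, at 3320, 15310 and 8030 CPM against 1992, 3569 and 4084 (log2 fold change -1.47).

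Genes of motile cilia were lower in flox/N211A as a whole list. Of the 22 axoneme genes tested, 0 lay above 0, the median log2 fold change was -1.11, and 9 did not overlap, all lower (40.9%, against 5.16% of all genes). The summed level was 6573, 10330 and 12690 CPM in flox/flox and 4592, 3924 and 3319 CPM in flox/N211A, without overlap. The flox/+ libraries ran from 1660 to 6240 CPM, so flox/N211A lay inside that range and flox/flox above it. Tppp3, a microtubule-bundling protein, stood at 503, 5243 and 2669.5 CPM against 453, 505 and 566, and Dnah12, a dynein heavy chain, at 903, 228 and 1254 against 498, 458 and 307. DESeq2 called Tppp3 (adjusted p = 0.0355). Each overlapped through a single flox/flox library, replicate 1 for Tppp3 and replicate 2 for Dnah12. The dynein heavy chains Dnah5 and Dnah6 also overlapped, at 504, 277 and 829 CPM against 459, 493 and 245 and at 447, 319 and 892 against 295, 333 and 213.

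Radial spoke genes were among the members without overlap, and are named after their values were seen. Rsph1, a protein of the radial spoke head, stood at 316, 519.6 and 487 CPM in flox/flox and 140.3, 159 and 121 CPM in flox/N211A (log2 fold change -1.65, SE 0.43, adjusted p = 0.403). Rsph4a stood at 378, 238 and 407 CPM against 147, 69.6 and 143 and Rsph9 at 302, 965 and 545 against 187, 156 and 247. Hydin, of the central pair apparatus, stood at 228, 330.4 and 434 CPM against 190.3, 147 and 84.1 (log2 fold change -1.23, SE 0.50, adjusted p = 0.562). In all 4 the flox/N211A libraries lay below every flox/flox library, flox/flox replicate 1 included.

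The transcription factors and centriole proteins that build multiciliated cells had the same direction, with 9 of 12 below 0, a median of -0.95 and 3 lower without overlap (25%, against 5.16% of all genes), namely Foxj1, Rfx3 and Ccdc78. They summed to 777.7, 1330 and 1386 CPM in flox/flox and to 404.6, 418 and 409.1 CPM in flox/N211A. Foxj1, the master factor of motile cilia, stood at 99.1, 67.7 and 297 CPM in flox/flox and 66.01, 29.7 and 53.6 CPM in flox/N211A (log2 fold change -1.64, SE 0.70, adjusted p = 0.62). Rfx3, a factor that works with it, stood at 136, 138 and 188 CPM against 78.3, 89.2 and 58.3 (log2 fold change -1.03, SE 0.50). Rfx2 overlapped, at 17.6, 259.9 and 64.99 CPM against 36.2, 78.7 and 43.5. The list medians kept their sign in all 20 fits, from -1.46 to -0.79 for the axoneme and from -1.40 to -0.64 for the regulators, and against flox/flox replicate 1 alone they were -0.89 and -0.94. Of the lists with a negative median, these 2, MHC class I and the pan-epithelial list kept that sign in every fit.

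**Figure D3:**
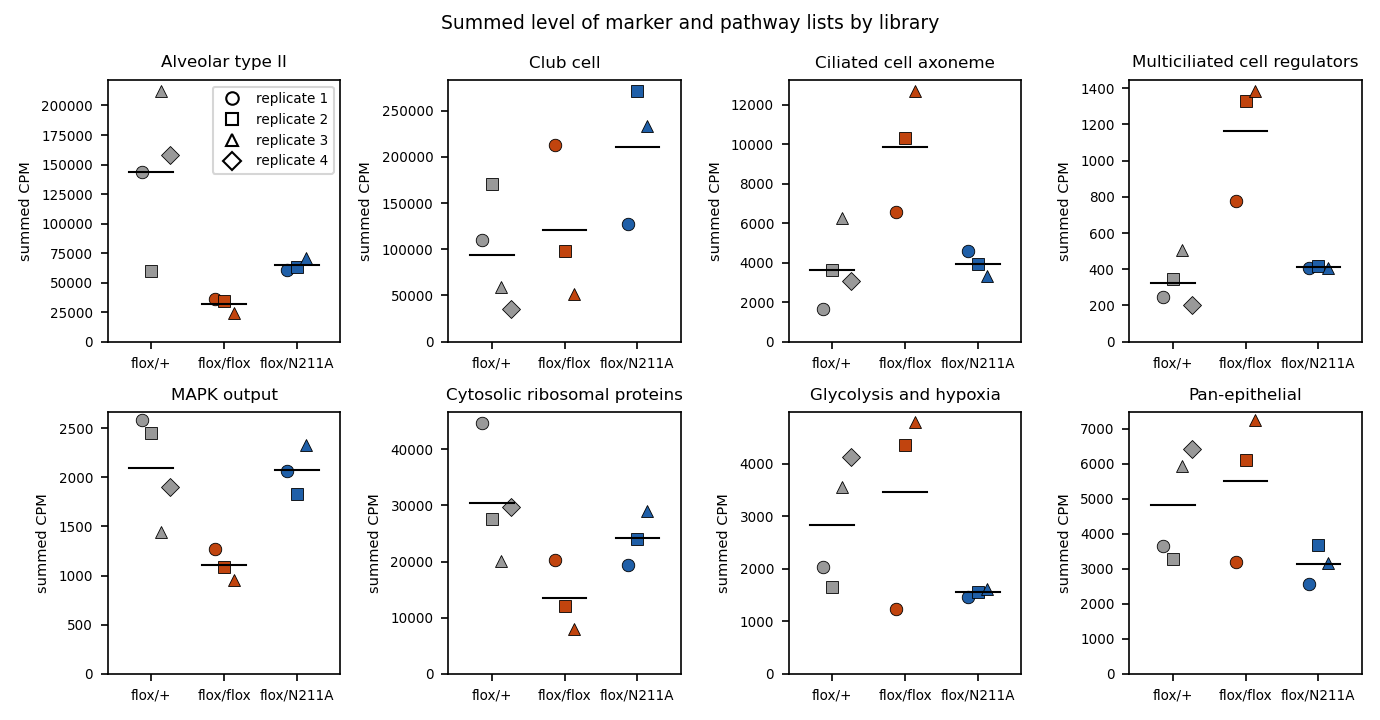
Summed TMM-scaled CPM of 8 lists, 1 point per library shaped by replicate, with the genotype mean as a line. The flox/N211A libraries lie above all flox/flox libraries for alveolar type II and MAPK output and below all of them for both cilia lists, while flox/flox replicate 1 lies near flox/N211A for glycolysis.

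Genes that report on MAPK signaling, the kinase cascade that growth factor receptors switch on, were higher in flox/N211A. Of 18 tested, 15 lay above 0, the median was 0.96, and 6 did not overlap, all higher (33.3%, against 14.2%). Their sum was 1267, 1090 and 956.6 CPM in flox/flox and 2066, 1831 and 2324 CPM in flox/N211A, without overlap, and 1442 to 2580 CPM in flox/+. Ccnd1, cyclin D1, stood at 126, 201 and 166 CPM in flox/flox and 248, 326 and 339.9 CPM in flox/N211A (log2 fold change 0.89, SE 0.44, adjusted p = 0.711). The immediate early factor Egr1 overlapped, at 499, 359 and 203 CPM against 875, 479 and 696, as did Phlda1, at 89.4, 115 and 60.8 against 133, 107 and 278.

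Dusp6, the phosphatase that ERK induces and that switches ERK off, was chosen after its values were seen. It stood at 59.8, 53.2 and 76.2 CPM in flox/flox and 181, 156 and 192 CPM in flox/N211A, every flox/N211A library at more than 2 times any flox/flox library (log2 fold change 1.48, SE 0.49, edgeR adjusted p = 0.452). The feedback inhibitors Spry2 and Spred1 also lay without overlap, at 24.9, 57.1 and 0.623 CPM against 101, 74.01 and 119 and at 64.02, 53.5 and 10.8 against 69.5, 113 and 128. Etv5, another ERK-induced factor, did not differ beyond the spread, at 102, 106 and 120.3 CPM against 83.6, 133 and 107. The list's median was 0.79 to 1.61 over the 20 fits, the highest with voom, where all genes had 0.98. Without flox/flox replicates 2 and 3 it was 1.09, against 0.21 for all genes.

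**Figure D4:**
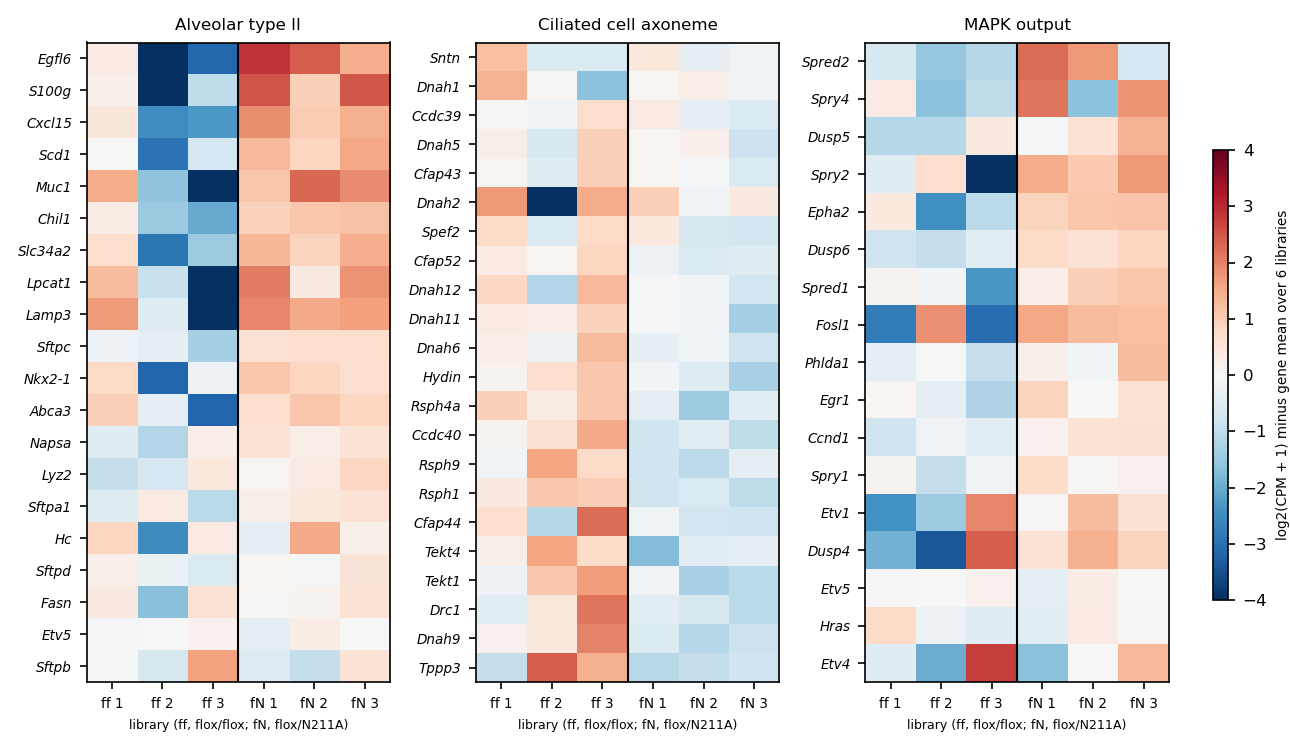
log2(CPM + 1) of tested members of 3 lists, minus the gene's mean over the 6 libraries, in columns for flox/flox (ff) and flox/N211A (fN) libraries, with the color scale ending at 4 either way. All 22 axoneme genes have a fold change below 0 and 18 of 20 alveolar type II genes one above 0, with genes ordered by fold change within each list.

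All 49 genes tested for cytosolic ribosomal proteins lay above 0, with a median of 0.81. Of these, 17 did not overlap, all higher (34.7%, against 14.2%), and 2 had an unadjusted p under 0.05. The sums did overlap, at 20350, 12040 and 8012 CPM in flox/flox and 19420, 24060 and 28940 CPM in flox/N211A, since flox/flox replicate 1 lay above flox/N211A replicate 1. Rpl5, of the large subunit, stood at 961, 283 and 219 CPM against 1108, 1432 and 1389.6 (log2 fold change 1.43, SE 0.60, adjusted p = 0.593), and Rps19, of the small subunit, at 734, 667 and 238 against 928, 1305 and 1283. Without flox/flox replicates 2 and 3 the median was 0.14, below the 0.21 of all genes. With voom it was 0.92 against 0.98 for all genes, and the median difference of mean log2 CPM was 1.01 against 0.88, so the distance of the list from all genes depended on the measure. Ribosomal protein genes have many processed pseudogenes, and the sources used here do not state how shared reads were counted. For ribosome biogenesis factors the median was 0.52, with 14 of 20 above 0.

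The integrated stress response, which cells start when amino acids are short, had 8 of 18 genes above 0, a median of -0.0789 and 5 higher without overlap (27.8%, against 14.2%). These 5 were Psat1 and, chosen after their values were seen, Phgdh, Mthfd2, Atf5 and Slc7a11. Phgdh, the dehydrogenase that opens serine synthesis, stood at 0, 0 and 0.0830 CPM in flox/flox and 3.05, 1.00 and 7.73 in flox/N211A. Mthfd2, of mitochondrial folate metabolism, stood at 0, 0 and 0.498 CPM against 10.97, 4.58 and 11.2, and the factor Atf5 at 0.280, 0 and 0.0208 against 8.20, 13.2 and 14.1. The flox/flox libraries of all these, Psat1 included, were under 1 CPM. Slc7a11, the cystine transporter, stood at 7.18, 0.179 and 2.57 CPM against 26.04, 36.6 and 22.2. Atf4, which drives the response, overlapped at 244, 77.6 and 185 CPM against 163, 138 and 190.1, as did Asns at 54.2, 6.35 and 146 against 48.2, 40.5 and 52.7. Over the 20 fits the list's median had the opposite sign in 10.

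Members of the BCL2 family, which decide on mitochondrial cell death, went both ways, with 7 of 16 above 0 and a median of -0.96. Without overlap, 4 were higher (25%, against 14.2% of all genes) and 3 lower (18.8%, against 5.16%). Bok, a pro-apoptotic effector, stood at 144, 223 and 206 CPM in flox/flox and 36.3, 67.3 and 45.1 CPM in flox/N211A (log2 fold change -1.95, SE 0.53, edgeR adjusted p = 0.403, DESeq2 adjusted p = 0.0213). Bad, a BH3-only protein, stood at 32.8, 179 and 54.5 CPM against 16.3, 19.6 and 28.5 (log2 fold change -2.05, SE 0.87, adjusted p = 0.597). Both were lower in every flox/N211A library. The anti-apoptotic Mcl1 and Bcl2l1 overlapped, at 98.1, 169.8 and 125 CPM against 232, 145 and 159 and at 30.8, 112 and 140.4 against 45.9, 14.8 and 71.99. Pmaip1, which encodes NOXA, and Bid were at 0 counts throughout flox/flox and stood at 3.53, 22.7 and 23.4 and at 5.91, 1.00 and 6.92 CPM in flox/N211A. Bcl2l11, which encodes BIM and was chosen after its values were seen, stood at 0, 3.13 and 0 CPM against 20.6, 13.9 and 14.9. The list's median turned to 1.13 without flox/flox replicates 2 and 3.

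Inflammatory targets of NF-kB had 10 of 15 genes above 0, a median of 1.39 and 4 higher without overlap (26.7%, against 14.2%). Lcn2, lipocalin 2, stood at 87.9, 1.43 and 19.2 CPM in flox/flox and 268, 233 and 276 CPM in flox/N211A (log2 fold change 2.84, SE 1.09, adjusted p = 0.531). Nfkbia, the inhibitor that NF-kB induces, overlapped at 142, 661 and 139 CPM against 292, 166 and 215, and Icam1 at 171, 22.01 and 561 against 218, 283 and 167. Ccl20, a chemokine, stood at 1.86, 0 and 0 CPM against 53.7, 0.502 and 272, and flox/N211A replicate 3 carried its mean. Tnfaip3, the deubiquitinase A20 that restrains the pathway, was chosen after its values were seen and stood at 2.14, 4.30 and 0.0208 CPM against 22.6, 41.1 and 24.5. The list's median was positive in all 20 fits, from 0.35 to 3.86. Over the same fits the median of all genes ran from -0.237 to 0.982, and both highest values came from voom.

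MHC class II genes, which present antigen and which type II cells also express, had a median of -1.43 and 0 of 7 genes above 0, all of them overlapping. Cd74, the invariant chain, stood at 132, 259 and 3578 CPM against 70.5, 108 and 221, and H2-Ab1 at 214, 564 and 1407 against 301, 269 and 241. Flox/flox replicate 3 was the high library of both, and replicate 1 lay within or next to the flox/N211A range. The median was 0.14 without flox/flox replicates 2 and 3. The median of glycolysis and hypoxia genes also changed sign, from -0.79 to 0.31 without those libraries, and 7 of 21 lay above 0. Unlike the class II genes, 2 were higher (9.52%, against 14.2% of all genes) and 2 lower (9.52%, against 5.16%) without overlap. Aldoa, an aldolase, stood at 259.7, 1716 and 1288 CPM against 307, 334 and 380.1, Ldha, lactate dehydrogenase A, at 358, 1192 and 1266 against 358, 329 and 483, and Eno1, an enolase with pseudogene copies, at 14.9, 483 and 341 against 10.02, 37.7 and 22.4. In all 3 flox/flox replicate 1 lay within or just below the flox/N211A range, and replicates 2 and 3 were high.

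A set of 88 genes had 0 counts in all 3 flox/flox libraries and at least 1 CPM in each flox/N211A library, and 0 genes showed the reverse. Counts of 0 were more frequent in flox/flox over all 11898 genes tested, at 8.66%, 27.9% and 6.83% in replicates 1 to 3. In flox/N211A the shares were 0.841%, 4.44% and 0.756%. Whether the 88 genes go beyond that general difference was not tested. The floor of 3 counts per library lay at 0.28, 0.269 and 0.0623 CPM in flox/flox replicates 1 to 3 and covers counting error only. Slc26a4, the anion exchanger pendrin, stood at 23.4, 13.9 and 17.3 CPM in flox/N211A, at least 89.3-fold higher than the mean floor. Metrnl, a secreted factor, stood at 23.9, 12.04 and 17.4 CPM, at least 87.5-fold higher, and Ptges, the prostaglandin E synthase, at 10.7, 34.9 and 6.62 CPM, at least 85.5-fold higher. Flox/+ libraries expressed Slc26a4 and Ptges at 6.96 to 19.00 and 8.03 to 44.4 CPM, and Metrnl was at 0 in 1 of the 4. The cytokine Lif stood at 8.58, 20.01 and 8.55 CPM, the decoy receptor Tnfrsf23 at 9.16, 21.9 and 16.9 and the T cell ligand Tnfsf9 at 14.7, 5.14 and 7.88. Sox9, a factor of lung progenitors, was low but even, at 1.43, 1.51 and 1.64 CPM. Msln, mesothelin, stood at 11.4, 6.65 and 30.6 CPM and Cd79b, a B cell receptor subunit, at 3.72, 6.46 and 26.7. These genes were selected for being at 0 in flox/flox, so their direction follows from the choice. The lists that hold Msln and Cd79b were not at 0 there, and their sums overlapped. Mesothelial genes summed to 248, 669 and 927 CPM in flox/flox and 214, 521 and 402 CPM in flox/N211A. B cell genes summed to 1.12, 41.97 and 3.55 CPM against 14.5, 6.46 and 27. Of the 117 genes that edgeR called against flox/flox replicate 1 alone, 49 had 0 counts in it.

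Fibronectin, Fn1, and the cardiac myosin heavy chain Myh7 nearly met the same condition, and both were chosen after their values were seen. Fn1 stood at 0.186, 0 and 0.104 CPM in flox/flox and 27.2, 28.7 and 9.74 CPM in flox/N211A (log2 fold change 7.72, SE 2.27, adjusted p = 0.403). Myh7 stood at 0.280, 0.179 and 0.374 CPM against 22.4, 36.1 and 21.6 (log2 fold change 6.54, SE 1.84, adjusted p = 0.403). The flox/flox libraries were all under 1 CPM for both, and the flox/+ libraries at 11.2 to 155 and 22.9 to 97.3 CPM. The cardiac and smooth muscle list that holds Myh7 did not follow it. Its sums overlapped, at 72.5, 1.16 and 56.6 CPM in flox/flox and 66.8, 52.4 and 62.4 CPM in flox/N211A. Other muscle genes were thus expressed in flox/flox replicates 1 and 3.

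Markers of cells other than epithelium were present at uneven levels. Fibroblast genes had 11 of 13 above 0, a median of 1.90 and 3 higher without overlap (23.1%, against 14.2% of all genes). The median was 0.52 without flox/flox replicates 2 and 3, against 0.21 for all genes, and 7.93 without flox/flox replicate 1. Fibroblast genes summed to 1739, 205.5 and 1406 CPM in flox/flox and 1279, 1340 and 489.5 CPM in flox/N211A, so the sums overlapped. Gsn, gelsolin, carried much of these sums and had the opposite sign to most of the list, at 1287, 36.6 and 1303 CPM against 498, 529 and 179, with flox/flox replicates 1 and 3 as the high libraries. Col4a1 and Col4a2, collagen IV chains, overlapped at 60.9, 110.3 and 26.97 against 85.6, 104 and 119 and at 49.2, 35.6 and 73.5 against 72.8, 88.3 and 60.98. Sparc stood at 153, 0 and 0.0415 CPM against 162, 149 and 77.5, and the defining genes Pdgfra and Dcn at 0, 0 and 0.0208 and 0, 0 and 0.187 CPM in flox/flox and 10.02, 70.2 and 0 and 0, 0 and 0 CPM in flox/N211A. All 7 endothelial genes tested lay above 0, with a median of 2.1, but 0 of them were without overlap (0%, against 14.2% of all genes). They summed to 102.5, 4.116 and 27.93 CPM against 225, 170.5 and 52.28 CPM. Kdr, the VEGF receptor of endothelium, stood at 78.9, 4.03 and 0.0208 CPM against 87.5, 61.97 and 40.9. Erythroid genes summed to 85.3, 3046 and 644.6 CPM in flox/flox and 1036, 2924 and 0.892 CPM in flox/N211A, high and low in both genotypes, with the globin gene Hba-a1 at 35.5, 1135 and 229 CPM against 364, 1087 and 0. Pan-leukocyte genes summed to 11.9, 39.0 and 56.1 CPM in flox/flox and 14.7, 2.57 and 100.2 CPM in flox/N211A. Ptprc, the gene of CD45, stood at 5.80 CPM in flox/N211A replicate 3 and at or under 0.0623 CPM in the other 5. Macrophage and monocyte genes summed to more, at 311.1, 198.4 and 426.6 CPM against 404.9, 480.9 and 316. Neutrophil genes summed to 50.2, 0.716 and 63.7 CPM against 11.4, 27.7 and 221.2. For T and NK cell genes the sums were 0, 0 and 0.249 CPM against 6.01, 0.0627 and 19.4. All of these sums overlapped. The pan-epithelial list summed to 3199, 6106 and 7237 CPM in flox/flox and 2577, 3687 and 3177 CPM in flox/N211A. Its median was -0.49, with 9 of 10 below 0 and 1 lower without overlap (10%, against 5.16% of all genes). The part of these cells in the results above was not tested.

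**Figure D5:**
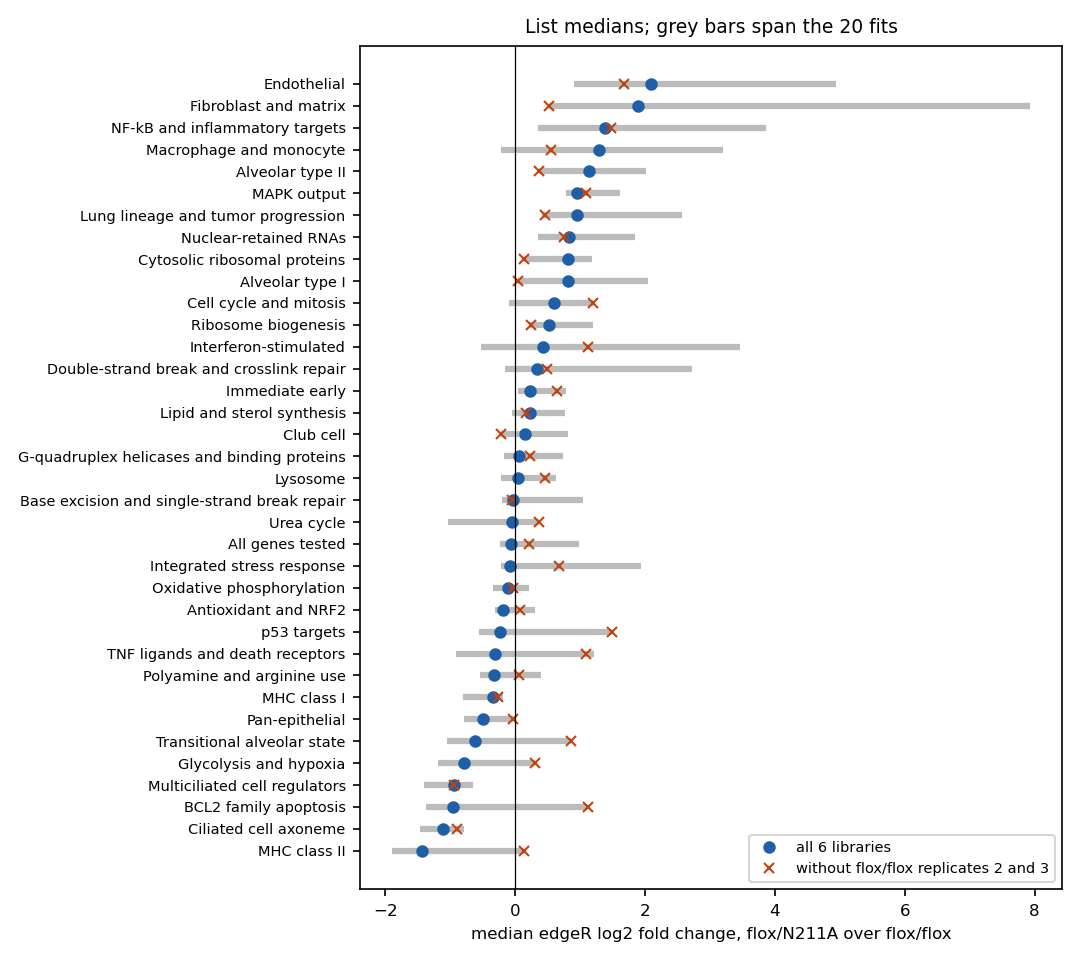
Median edgeR log2 fold change of each list with at least 5 genes tested, flox/N211A over flox/flox. Blue points use all 6 libraries, red crosses leave out flox/flox replicates 2 and 3, and grey bars run from the lowest to the highest of 20 fits, with the cilia lists below 0 and MAPK output above 0 throughout.

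Urea cycle genes, named in the title of the series, did not separate the genotypes. Of the 9 listed, 5 had enough counts to be tested, 2 of them above 0, a median of -0.0401 and overlapping libraries throughout. Ass1, which joins citrulline and aspartate, stood at 5.68, 36.2 and 91.7 CPM in flox/flox and 19.3, 3.70 and 14.7 CPM in flox/N211A (log2 fold change -1.83, SE 1.31, adjusted p = 0.872). Argininosuccinate lyase, Asl, stood at 6.62, 112 and 51.4 CPM against 4.67, 4.45 and 15.5 (log2 fold change -2.79, SE 1.29, adjusted p = 0.672). Flox/flox replicates 2 and 3 were the high libraries of both, and without them the fold changes turned to 1.06 and 0.23. Arg2, the mitochondrial arginase, stood at 40.7, 83.7 and 39.2 CPM against 69.8, 27.2 and 69.6 (log2 fold change 0.03, SE 0.76, adjusted p = 0.994), with wide overlap, and its sign changed with the scaling. The carriers Slc25a15, for ornithine, and Slc25a13, for aspartate and glutamate, stood at 11.8, 0.805 and 0.498 CPM against 8.49, 1.00 and 3.27 and at 17.98, 0 and 34.3 against 44.5, 20.6 and 25.9.

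The remaining 4 members were at or near 0. Arg1, the cytosolic arginase, had 0 counts in flox/flox and stood at 3.82, 0 and 0.892 CPM in flox/N211A, beside 2.65 to 92.3 CPM in flox/+. Nags stood at 0 in every library of the 6 but flox/N211A replicate 3, at 1.64 CPM, and Cps1 and Otc reached at most 0.561 and 0.0208 CPM. Of the 5 urea cycle genes with a promoter window, Ass1 and Slc25a15 held the guanine motif. Ass1 is shown as the enzyme among them, with every base inside a match in capitals, in 2 separate stretches on the gene's own strand, at chr2:31470020-31470319 on the plus strand.
Ass1: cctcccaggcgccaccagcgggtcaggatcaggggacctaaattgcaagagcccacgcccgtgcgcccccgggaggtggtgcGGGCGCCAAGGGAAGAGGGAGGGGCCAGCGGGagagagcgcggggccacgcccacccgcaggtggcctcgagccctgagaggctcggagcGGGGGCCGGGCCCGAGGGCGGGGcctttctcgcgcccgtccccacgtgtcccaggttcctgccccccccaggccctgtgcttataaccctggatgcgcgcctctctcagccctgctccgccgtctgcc
The Ass1 libraries overlapped, at 3.70 to 19.3 CPM in flox/N211A and 5.68 to 91.7 CPM in flox/flox.

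Base excision repair genes, the pathway of APE1 itself, had 9 of 19 above 0 and a median of -0.0352. Without overlap, 2 were higher (10.5%, against 14.2% of all genes) and 1 lower (5.26%, against 5.16%), shares below or close to those of all genes. Apex1 and the glycosylase Mpg were the 2 members higher without overlap, Mpg at 2.80, 0 and 0.0415 CPM against 12.8, 20.01 and 15.2, and the 8-oxoguanine glycosylase Ogg1 the member lower, at 10.8, 11.1 and 23.96 against 6.68, 9.47 and 7.59. Mpg and Ogg1 were chosen after their values were seen. Hmgb1, a DNA-bending protein, stood at 223, 297 and 289.5 CPM against 214, 296 and 156, and Pcna, the sliding clamp of replication, at 55.9, 62.4 and 45.9 against 47.3, 60.1 and 63.9. Both overlapped. Proteins that unwind or bind G-quadruplexes had 11 of 18 above 0 and a median of 0.0621. The helicase Ddx5 stood at 1575, 709 and 2169.7 CPM against 1365, 1508 and 943, the zinc finger protein Cnbp at 182, 379 and 324 against 257, 379 and 308 and nucleolin, Ncl, at 177, 386 and 218 against 223, 249.8 and 219.8, all with overlap. Hnrnpa2b1 was the 1 member without overlap (5.56%, against 5.16% of all genes), lower at 197, 197 and 337 CPM against 181, 155 and 137.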

How the data were processed

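The authors deposited unnormalized read counts of 10 mouse lung libraries as a table of 25277 gene symbols. Per the submitters' processing notes, the tools were Trim Galore 0.5.0 (trimming), HISAT2 2.1.0 (alignment, build mm10), featureCounts 1.6.4 (counting) and DESeq2, whose version they do not give. The sources used here do not state the annotation, the strand setting or the handling of reads mapping to several places, so overlapping, antisense and near-identical genes are uncertain. The reads carried no molecular identifiers, and floors cover counting error only. Coordinates come from GENCODE M21 on GRCm38, in which 96.6% of symbols were found.

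Groups and replicate numbers are those of the labels. The 6 libraries of flox/N211A and flox/flox were fitted with edgeR 4.0.16 in R 4.3.3 (filterByExpr, TMM factors, quasi-likelihood test with genotype as its only term, two-sided, Benjamini-Hochberg adjustment over 11898 genes, threshold 0.05). The SE is the absolute log2 fold change divided by the square root of F. CPM uses TMM-adjusted totals, with flox/+ on the same scale and outside the test. Libraries without overlap means that every value of 1 genotype lies above every value of the other. The text names Apex1, all urea cycle genes, in each direction the 10 smallest p without overlap at a mean of at least 10 CPM and no clone name, up to 4 members per described list by mean CPM, and genes at 0 counts in 1 genotype and at least 1 CPM throughout the other. Genes outside this rule are marked as chosen after their values were seen. The values of 1 member of the MAPK list are not reported here. The comparison, members and lists were chosen with earlier results of these data known.

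Alternatives were DESeq2 1.42.0, limma 3.58.1 voom with quality weights, DESeq2 size factors and plain totals in edgeR, other low-count filters, all 10 libraries, a replicate block, genes detected as a covariate, an adjusted p under 0.1, a minimum fold of 2, thinning to the smallest total, prior counts of 2 and 0.5 for mean log2 CPM, each library left out, and flox/flox replicates 2 and 3 left out together.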

Additional observations from a re-analysis of the deposited data

How the results depend on the processing

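Of the 19 alternatives to the test with all 6 libraries, an adjusted p under 0.1 and a minimum fold of 2 could add no calls. The first rereads the same fit, whose lowest adjusted p was 0.403, and the second tests it more strictly. Both repeat its list medians within the 20 fits. The count of genes called was 0 in 16 of the 19 alternatives. It was 350 with DESeq2, 41 without the low-count filter (8 higher, 33 lower) and 117 without flox/flox replicates 2 and 3 (103 higher, 14 lower), of which 91 had the same direction and 20 an unadjusted p under 0.05 with all 6 libraries. Leaving out each library in turn gave 0 calls, with a lowest adjusted p of 0.0645 without flox/flox replicate 2. The number of genes without overlap was 2304, 1480 with a filter of 10 CPM in 3 libraries, and 2952 to 5627 with 1 library left out, where fewer libraries make overlap rarer by construction. It was highest without flox/flox replicate 1. The replicate block gave 0 calls and a lowest adjusted p of 0.783. Same-numbered libraries deviated together with correlations of 0.0714, 0.0505 and 0.0383. Since the test with all 6 libraries had 0 calls already, the unchanged count cannot tell whether replicate numbers mark a shared batch. The block did move fold changes. With it the median log2 fold change of all genes was 0.724, and 81.1% of genes kept their sign. Whether replicate numbers stand for a batch was not tested. Fold changes reversed for urea cycle genes only, among the 45 genes with a fold change followed through the alternatives. The followed genes outside the urea cycle all had libraries without overlap, which leaves little room for a reversal. The contrast between them and the urea cycle genes thus follows from the choice of genes. Without flox/flox replicates 2 and 3 the fold changes were 1.06 for Ass1 and 0.226 for Asl. For Arg2 they were -0.0111 with DESeq2 size factors, -0.011 with DESeq2, -0.111 without the filter, -0.101 with all 10 libraries and between -0.24 and 0.349 with 1 library left out. For Slc25a15 they were 0.0944 with plain totals, 0.823 with voom, 0.795 with the replicate block and between -1.03 and 2.69 with 1 library left out, and for Slc25a13 they ran from -0.0111 without flox/flox replicate 2 to 1.68 without replicate 3. The cause of these shifts was not tested. The median log2 fold change of all genes was 0.982 with voom and -0.0671 in the test with all 6 libraries. Depth limits genes near 0, since a count of 0 allows up to 0.28 CPM in flox/flox replicate 1.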

Other observations

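Lysosomal genes had 11 of 20 above 0 in flox/N211A against flox/flox and a median log2 fold change of 0.047, with 5 higher (25%, against 14.2% of all genes) and 1 lower (5%, against 5.16%) without overlap. Those named here were chosen after their values were seen, except Npc2. Clcn7, the chloride transporter that needs Ostm1 as its subunit, stood at 0.559, 0.716 and 0.0623 CPM in flox/flox and at 9.82, 24.5 and 3.64 CPM in flox/N211A, so both subunits were under 1 CPM in all flox/flox libraries and above it in all flox/N211A libraries. Npc2, the cholesterol carrier of the lysosome, stood at 447, 624 and 471 CPM against 867, 1294 and 1298 (log2 fold change 1.17, SE 0.42, adjusted p = 0.485). Psap, the saposin precursor, was lower, at 77.7, 111 and 464 CPM against 29.9, 21.1 and 37.9. None passed in edgeR, and DESeq2 called Psap (adjusted p = 0.0151) and Ostm1.

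Genes that use arginine and ornithine to make polyamines had 6 of 14 above 0 and a median of -0.32. Without overlap, 2 were higher (14.3%, against 14.2% of all genes) and 1 lower (7.14%, against 5.16%). Over the 20 fits the list's median had the opposite sign in 6, and it was 0.06 without flox/flox replicates 2 and 3. Oaz2, an antizyme that marks ornithine decarboxylase for degradation, stood at 159, 314 and 489 CPM in flox/flox and 102, 70.5 and 89.5 CPM in flox/N211A, without overlap (log2 fold change -1.87, SE 0.54, edgeR adjusted p = 0.403, DESeq2 adjusted p = 0.0437). Oaz1 overlapped through flox/flox replicate 1, at 219, 732 and 568 CPM against 154, 168 and 233. Among club cell genes, Scgb3a1 was chosen after its values were seen and stood at 122, 137 and 194 CPM in flox/flox and 336, 288 and 4146 CPM in flox/N211A, where replicate 3 was far above the others, while Cyp2f2, the club cell cytochrome, was lower in all flox/N211A libraries, at 2896, 7341 and 4398 CPM against 2210.4, 2384 and 2481.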
